A study of Mus musculus with 32 samples.

Results

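The period genes Per1, Per2 and Per3, the cryptochrome genes Cry1 and Cry2 and Ciart form the negative limb of the molecular clock, and their transcripts were followed in murine brown adipose tissue over 24 h. The genes were taken by name, as the rows of the deposited count table whose Ensembl identifier maps to these 6 symbols, out of 50686 rows in all. All 6 passed the filter on low counts that left 15505 genes for testing. The tissue was the interscapular depot (iBAT), a thermogenic pad on the upper back, of C57BL/6J mice that were male, 10 weeks old, fed chow and without a transgene, and that lived in mild cold under a light:dark cycle with equal phases. There were 8 time points at intervals of 3 h, with 4 mice at each, 1 library per mouse and no other treatment. Times are Zeitgeber times (ZT), in hours from lights on at ZT0, the start of the inactive phase, with lights off at ZT12, the start of the active phase.

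In the mammalian clock, the transcription factors BMAL1 (encoded by Arntl) and CLOCK bind E-boxes and switch on the period and cryptochrome genes. PER and CRY proteins assemble in the cytoplasm, return to the nucleus and repress BMAL1 and CLOCK until they are degraded, which closes a loop of about a day. Ciart (also called Chrono) encodes a further repressor of BMAL1 and CLOCK, and brown fat, like other peripheral tissues, carries its own copy of this loop.

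Total counts per library lay between 16300770 and 18254659. All 7 adipocyte markers (Ucp1, Cidea, Ppargc1a, Prdm16, Dio2, Adipoq and Fabp4) were present in every library. Ucp1, the uncoupling protein of brown fat, ranged from 955 to 4318 CPM (reads per gene relative to the scaled library total). Markers of skeletal muscle, the tissue below the pad, differed widely between mice: the sum of 8 muscle genes ran from 2.17 to 6911 CPM around a median of 478, and 5 libraries, from ZT0, ZT3, ZT12, ZT15 and ZT18, stood over 10 times above that median. The summed level of 3 white fat markers (Lep, Nnat and Agt) lay between 29.7 and 33.6 CPM at ZT6 and between 165 and 369.8 CPM at ZT15. Lep had the highest median of the 3 (95.3 CPM, against 13.4 for Nnat and 1.83 for Agt). The study lists Lep and Nnat themselves among its oscillating genes. The sum of 3 endothelial markers (Pecam1, Cdh5 and Kdr) was lowest at ZT12, at 514 to 553 CPM, when Per1, Per3 and Ciart had their highest means, and lay between 639 and 800.5 CPM at ZT0. The part of white fat and endothelial markers in the courses below was not tested. In pieces of whole tissue, fewer cells of a type and less RNA per cell cannot be told apart. Sequencing lane 2 held ZT0, ZT3 and ZT6, lane 3 held ZT9, ZT12 and ZT15, and lane 4 held ZT18 and ZT21, so that between these blocks lane and time of day cannot be told apart.

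The stretches before the transcription start that hold clock motifs are shown first, because E-boxes and D-boxes are the sites through which the loop and its output factors DBP, TEF, HLF and NFIL3 act. The sequences are RefSeq's, on GRCm38.p6, for windows from 250 bases before to 50 after each start. Such a window was found for Per1 (with 2 starts), Per3, Cry1, Cry2 and Ciart, and none for Per2. On both strands a script searched for the E-box CACGTG, the E-prime box CACGTT, the D-box TTATGNAA, the REV-ERB/ROR element TAGGTCA, the CRE TGACGTCA and the glucocorticoid response element (GRE). Each stretch is printed 5′ to 3′ on the strand of its gene with the matched letters in capitals (AACGTG is CACGTT read from the other strand).
Ciart (chr3:95882247-95882364, minus strand): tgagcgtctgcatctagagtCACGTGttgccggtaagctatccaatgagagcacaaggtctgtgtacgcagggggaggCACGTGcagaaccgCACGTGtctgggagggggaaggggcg
Cry1 (chr10:85185089-85185153, minus strand): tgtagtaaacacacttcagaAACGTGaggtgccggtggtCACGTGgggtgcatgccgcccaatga
Cry2 (chr2:92434210-92434255, minus strand): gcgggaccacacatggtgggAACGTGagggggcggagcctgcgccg
Per1 (chr11:69098763-69098948, plus strand): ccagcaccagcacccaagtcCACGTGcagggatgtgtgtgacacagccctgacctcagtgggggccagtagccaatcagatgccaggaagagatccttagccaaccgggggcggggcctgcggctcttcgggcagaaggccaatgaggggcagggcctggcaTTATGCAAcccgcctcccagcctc
Per3 (chr4:151044796-151044890, minus strand): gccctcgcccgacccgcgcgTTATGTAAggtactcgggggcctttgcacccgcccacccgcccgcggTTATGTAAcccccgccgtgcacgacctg
Ciart held 3 E-boxes, at positions -116, -58 and -44 from its start, where 7.15% of all 32851 windows held at least 1. Cry1 held an E-prime box at -79 beside an E-box at -60, and Cry2 held only an E-prime box, at -166, a motif found in 4.68% of windows. Per3 held 2 D-boxes, at -205 and -158, against 3.38% of windows with any, and no E-box. The first Per1 start, which lies inside the longer annotated gene, had an E-box at -166 and a D-box at -24, and the window of the second start matched none of the 6 motifs. The REV-ERB/ROR element, the CRE and the GRE, found in 2.61%, 1.79% and 0.475% of all windows, matched in none of these windows. Sites farther upstream or within the genes were not searched. A match describes letters and is not a measured binding site.

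All 6 repressor transcripts changed over the day. Fitted with a cosine of 24 h period, 6 of 6 passed the threshold (edgeR quasi-likelihood test, Benjamini-Hochberg (BH) adjusted P under 0.05), where 36.1% of all tested genes did. With lane as a further term 5 of 6 passed, all but Cry2, against 17.2%. Any difference between the 8 time points, without a term for lane, was found for 6 of 6 against 39.8%, and differences within lanes, tested jointly, for 5 of 6, all but Cry2 (adjusted P = 0.07), against 21.4%. JTK cycle analysis, a rank test for rhythms, gave P under 0.05 for 6 of 6 against 36.4% of genes, and 6 of 6 also passed after BH adjustment, against 27.1%. Their median amplitude, the distance from the mean to the fitted peak, was 1.16 on the log2 scale, beside 0.139 over all tested genes. The amplitudes of the members were far from equal: Per2 ranked 21 among 15505 genes, Ciart 34, Per3 57, Cry1 136 and Per1 146, whereas Cry2 ranked 2400.

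Per1 (ENSMUSG00000020893, chr11:69095217-69109960, plus strand) is a period gene that also responds to acute signals such as glucocorticoids and cAMP. Its mean was lowest at the onset of light and highest at the onset of dark. In ascending order the 4 mice had 10.1, 15.4, 19.3 and 19.8 CPM at ZT0, 28.9, 29.9, 40.1 and 68.8 CPM at ZT3, and 29.6, 32.6, 49.5 and 54.9 CPM at ZT6. In the following hours they had 46.9, 66.9, 98.5 and 117 CPM at ZT9, 109, 112, 112 and 140.1 CPM at ZT12, and 36.2, 40.4, 47.8 and 72.2 CPM at ZT15. Late in the night they had 31.5, 35.4, 44.7 and 70.0 CPM at ZT18, and 27.0, 33.0, 33.9 and 44.0 CPM at ZT21. Every mouse at ZT0 lay below every mouse at any other time, and at ZT12 all mice lay above those of all other times except ZT9. The mean rose from 16.2 ± 4.47 CPM (SD, n = 4) at lights on to 118 ± 14.7 CPM (SD, n = 4) at lights off, a ratio of 7.31. Between these extremes ZT3, ZT6, ZT15, ZT18 and ZT21 overlapped with their neighbours in the order of levels, at means of 34.5 to 49.1 CPM. The fitted peak was at ZT11.5 ± 0.547 h (SE) with an amplitude of 0.99 ± 0.14 (SE) log2 units, and the adjusted P of the cosine was 7.1e-06.

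Per2 (ENSMUSG00000055866, chr1:91415982-91459324, minus strand), whose product binds CRY and is required for a stable rhythm, covered the widest fitted range of the 6. The mice had 14.0, 16.6, 22.8 and 37.2 CPM at ZT0, 4.58, 6.44, 7.38 and 8.17 CPM at ZT3, and 13.7, 13.8, 14.2 and 14.7 CPM at ZT6. Through the second part of the day and early night they had 31.5, 40.1, 64.0 and 64.4 CPM at ZT9, 76.5, 79.2, 84.6 and 92.5 CPM at ZT12, and 91.8, 109, 117 and 121 CPM at ZT15. At the end of the night they had 39.6, 47.6, 55.5 and 66.0 CPM at ZT18, and 18.8, 19.4, 20.2 and 21.9 CPM at ZT21. All mice at ZT3 lay below those of every other time, and all mice at ZT12 and ZT15 above those of every other time, while ZT12 and ZT15 overlapped with each other. From its lowest mean, at ZT3, to its highest, at ZT15, Per2 mRNA differed 16.5-fold. The spread was widest relative to the mean at ZT0 (coefficient of variation 45.8%), where replicate 3 had 37.2 CPM, and narrowest at ZT6 (3.36%). Per2 peaked at ZT14.3 ± 0.293 h (SE) with an amplitude of 1.72 ± 0.13 (SE) log2 units (adjusted P = 6.6e-10).

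Per3 (ENSMUSG00000028957, chr4:151003652-151044665, minus strand), the period gene that mice can lose with little effect on their rhythm, had the highest counts of the 6. Its levels were 29.2, 30.2, 31.8 and 37.4 CPM at ZT0, 40.5, 51.4, 53.1 and 53.2 CPM at ZT3, and 49.6, 68.5, 94.6 and 101 CPM at ZT6. Around the onset of dark they were 125, 170.2, 209 and 264 CPM at ZT9, 196, 212, 214 and 229 CPM at ZT12, and 146, 169, 169.5 and 195 CPM at ZT15. They then came down to 79.7, 85.1, 101 and 111 CPM at ZT18, and 44.0, 45.6, 55.9 and 61.2 CPM at ZT21. The 12 mice of ZT9, ZT12 and ZT15 all lay above the 20 others, and the 4 of ZT0 below all others. ZT9 overlapped with both ZT12 and ZT15, all mice at ZT12 lay above those at ZT15, and the spread at ZT9 (30.8% of the mean) was larger than at ZT12 (6.36%). At ZT0 the mean was 32.2 ± 3.68 CPM, and at ZT12 it was 213 ± 13.5 CPM (SD, n = 4 each). A cosine described Per3 most closely of the 6, with a share of 0.923 of the variance of log2 CPM in the fit, a peak at ZT12.2 ± 0.205 h (SE) and an amplitude of 1.32 ± 0.07 (SE) log2 units (adjusted P = 9.6e-15). Per3 lies within the span of Camta1 on the same strand, with which it shares no exonic base.

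**Figure D1:**
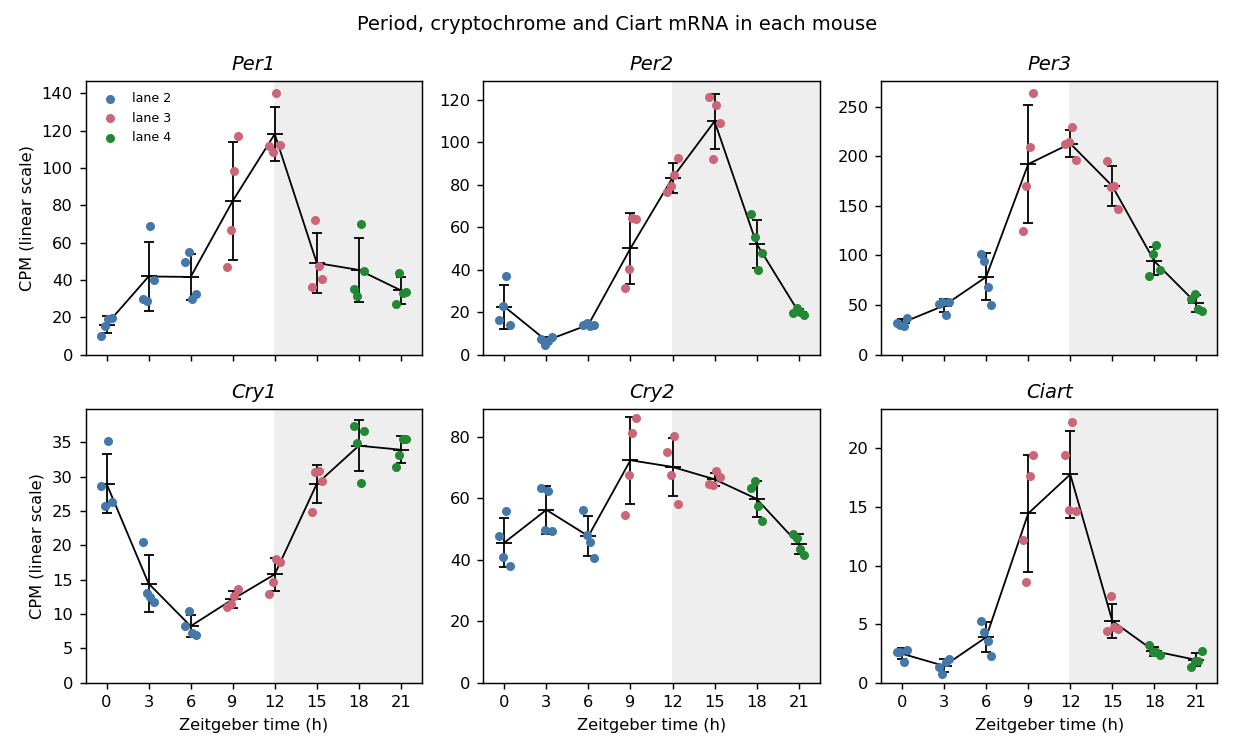
CPM (linear scale) of the 6 genes against Zeitgeber time in each of 32 mice, coloured by sequencing lane, with the mean ± SD of 4 mice per time point as black marks joined by a line and the dark phase shaded. Per1, Per3 and Ciart have their 3 highest means at ZT9, ZT12 and ZT15, Per2 is highest at ZT12 and ZT15, Cry1 is highest from ZT15 to ZT0, and Cry2 stays between 37.8 and 86.1 CPM in all mice.

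Cry1 (ENSMUSG00000020038, chr10:85131700-85185064, minus strand), which encodes a strong repressor of BMAL1 and CLOCK, ran out of step with the period genes. It stood at 25.8, 26.3, 28.7 and 35.2 CPM at ZT0, 11.7, 12.5, 13.1 and 20.5 CPM at ZT3, and 6.96, 7.29, 8.24 and 10.5 CPM at ZT6. It then stood at 11.0, 11.4, 12.6 and 13.7 CPM at ZT9, 13.0, 14.7, 17.5 and 18.0 CPM at ZT12, and 24.9, 29.4, 30.7 and 30.9 CPM at ZT15. Late at night it stood at 29.1, 34.9, 36.7 and 37.4 CPM at ZT18, and 31.4, 33.2, 35.5 and 35.6 CPM at ZT21. The 16 mice of ZT15, ZT18, ZT21 and ZT0 all lay above the 16 of ZT3 to ZT12, and the 4 mice of ZT6 lay below all others. The lowest mean, at ZT6, was 8.25 ± 1.61 CPM, and the highest, at ZT18, was 34.5 ± 3.75 CPM (SD, n = 4 each). ZT18 and ZT21 differed by a log2 fold change of -0.02 (SE 0.14, adjusted P = 0.966), so that no order could be given between them. Cry1 peaked at ZT19.1 ± 0.253 h (SE), and its amplitude of 1.00 ± 0.07 (SE) log2 units (adjusted P = 3.4e-12) was close to that of Per1.

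Cry2 (ENSMUSG00000068742, chr2:92403646-92434043, minus strand), the paralogue of Cry1, moved little. The mice had 37.8, 40.8, 47.8 and 55.8 CPM at ZT0, 49.3, 49.7, 62.4 and 63.5 CPM at ZT3, and 40.7, 45.9, 48.1 and 56.0 CPM at ZT6. Around the onset of dark they had 54.7, 67.5, 81.1 and 86.1 CPM at ZT9, 58.0, 67.7, 74.9 and 80.1 CPM at ZT12, and 64.2, 64.7, 66.9 and 68.8 CPM at ZT15. At the end of the night they had 52.7, 57.6, 63.4 and 65.5 CPM at ZT18, and 41.4, 43.4, 47.0 and 48.5 CPM at ZT21. In the order of levels each time point overlapped with the next, but the mice of ZT3, ZT9, ZT12, ZT15 and ZT18 all lay above those of ZT21. The highest mean was 72.3 ± 14.2 CPM (SD, n = 4) at ZT9 and the lowest 45.1 ± 3.22 CPM (SD, n = 4) at ZT21, a ratio of 1.61. The fitted amplitude was 0.32 ± 0.06 (SE) log2 units with a peak at ZT12.1 ± 0.671 h (SE) (adjusted P = 1.6e-04). With lane as a further term the adjusted P of this cosine was 0.532, so for Cry2 a rhythm was not told apart from the lanes. A non-coding gene on the opposite strand, D930015M05Rik, shares 295 exonic bases (4.67%) with Cry2 and had 44 counts over all libraries.

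Ciart (ENSMUSG00000038550, chr3:95878503-95882251, minus strand) had the lowest mean over the day of the 6, though at ZT9 and ZT12 its mean CPM exceeded that of Cry1, and a brief peak. It was at 1.79, 2.63, 2.67 and 2.84 CPM at ZT0, 0.708, 1.32, 1.74 and 2.00 CPM at ZT3, and 2.28, 3.59, 4.38 and 5.31 CPM at ZT6. Around the onset of dark it was at 8.57, 12.2, 17.6 and 19.5 CPM at ZT9, 14.7, 14.7, 19.5 and 22.3 CPM at ZT12, and 4.41, 4.58, 4.72 and 7.39 CPM at ZT15. It ended the night at 2.35, 2.59, 2.59 and 3.25 CPM at ZT18, and 1.36, 1.84, 1.89 and 2.70 CPM at ZT21. The 8 mice of ZT9 and ZT12 all lay above the 24 others, whereas the low times ZT3, ZT21, ZT0 and ZT18 overlapped with their neighbours. Its mean was 1.44 ± 0.563 CPM (SD, n = 4) at ZT3, where libraries held as few as 13 reads, and 17.8 ± 3.74 CPM (SD, n = 4) at ZT12, a ratio of 12.3. In the fit without lane, Ciart alone of the members had a 12 h component beside the 24 h cosine (1 of 6, adjusted P = 0.0138, against 0.464% of all genes), and with lane as a term Per2 passed too. The fitted peak was at ZT11.3 ± 0.412 h (SE) with an amplitude of 1.54 ± 0.17 (SE) log2 units (adjusted P = 5.3e-09). The antisense gene C920021L13Rik spans Ciart without sharing an exonic base and had 2394 counts in all. Use of the strand in counting is not given in the sources used here.

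The fitted peaks ran from the end of the light phase into the night, with an order that was only partly resolved. They come from a single 24 h cosine, from which Ciart departed (12 h component, edgeR, adjusted P = 0.0138). Per2 also departed from it with lane as a term (adjusted P = 0.0343). Ciart, Per1, Cry2 and Per3 peaked within an hour of ZT12, Per2 followed, and Cry1 came last, in fits without lane. Per2 peaked 2.78 h after Per1 (95% interval 1.40 to 4.17 h), and Per3 peaked before Per2, by a difference of -2.07 h (95% interval -2.82 to -1.32 h, Per3 minus Per2). Cry1 peaked 4.89 h after Per2 (95% interval 4.17 to 5.62 h) and 7.68 h after Per1 (95% interval 6.46 to 8.89 h). The 2 cryptochrome genes were -7.04 h apart (95% interval -8.57 to -5.52 h, Cry2 minus Cry1) in the fits without lane, and with lane the rhythm of Cry2 did not pass. Of the 15 pairs, 10 had an interval that left out 0, with no adjustment over the pairs. The interval of Ciart and Per3 only just left out 0, with a difference of -0.885 h (95% interval -1.77 to -1.6e-04 h, Ciart minus Per3). The order of Per1 and these earlier genes was not resolved, as Per1 and Ciart differed by -0.173 h (95% interval -1.43 to 1.08 h, Ciart minus Per1), and Per1 and Per3 by 0.712 h (95% interval -0.287 to 1.71 h).

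**Figure D2:**
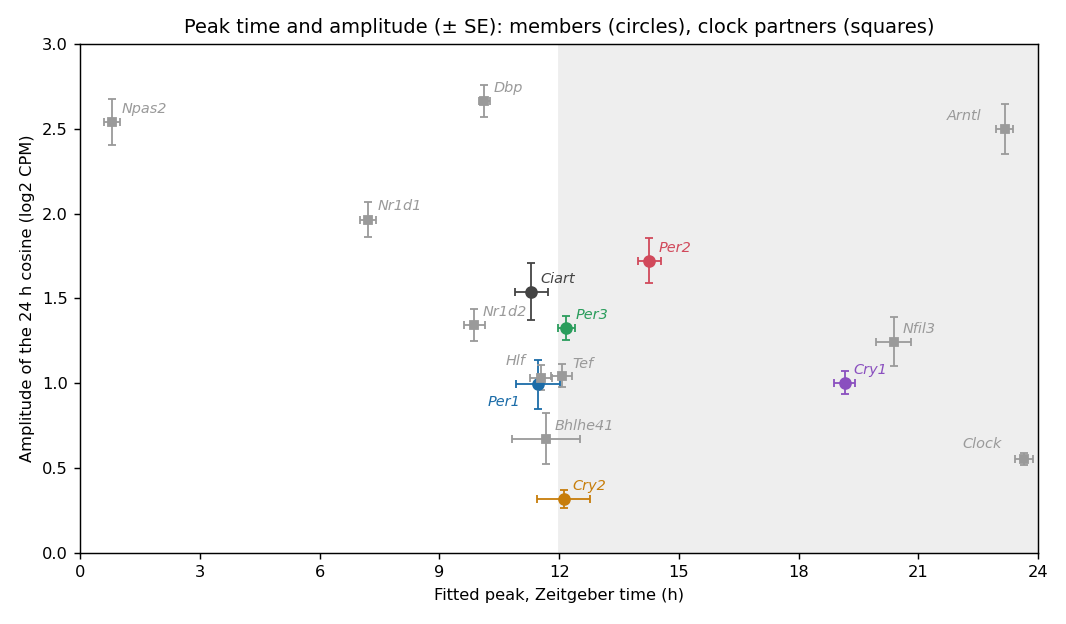
Fitted peak (Zeitgeber time, h) against amplitude (log2 CPM) of the 24 h cosine, each ± SE over 32 mice, for the 6 repressor genes (coloured circles) and the 10 clock partners past the threshold (grey squares), with the dark phase shaded. Per1, Per3, Cry2 and Ciart lie near ZT12, Per2 at ZT14.3 and Cry1 at ZT19.1, close to Nfil3.

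Changes over each interval of 3 h place the rises and falls. Of 48 such steps of the 6 genes, 20 passed the threshold, 9 upward and 11 downward, and 11 of the 20 passed in every fit with 1 library left out. Between ZT0 and ZT3, 4 of 6 differed (background 13.8% of genes): Per1 rose by 1.37 (SE 0.31, adjusted P = 0.00471) and Per3 by 0.62 (SE 0.19, adjusted P = 0.0285) on the log2 scale, while Per2 changed by -1.77 (SE 0.24, adjusted P = 6.4e-05) and Cry1 by -1.005 (SE 0.15, adjusted P = 1.3e-04). The 3 period genes thus parted in direction after lights on. Between ZT3 and ZT6, 3 of 6 differed (2.08%): Per2 rose by 1.09 (SE 0.24, adjusted P = 0.0155) and Ciart by 1.43 (SE 0.30, adjusted P = 0.00966), whereas Cry1 changed by -0.81 (SE 0.15, adjusted P = 0.00419). Between ZT6 and ZT9, a step that also crosses from lane 2 to lane 3, 4 of 6 rose (1.08% of genes rose), namely Per2 by 1.83 (SE 0.23, adjusted P = 6.8e-05), Per3 by 1.29 (SE 0.19, adjusted P = 2.8e-04), Ciart by 1.89 (SE 0.27, adjusted P = 2.5e-04) and Cry2 by 0.60 (SE 0.13, adjusted P = 0.0137).

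Between ZT9 and ZT12 edgeR called 0 of 6 members and 0 of 15505 genes (background 0%). With unadjusted P under 0.05, 2 of 6 (Per2 and Cry1, chosen here after their values were seen) and 1047 genes would pass, and DESeq2 called 0 of 6 members and 24 genes. After dark onset the members parted again. Between ZT12 and ZT15, 3 of 6 differed (3.04%): Ciart changed by -1.75 (SE 0.27, adjusted P = 4.9e-04) and Per1 by -1.27 (SE 0.30, adjusted P = 0.0201), while Cry1 rose by 0.87 (SE 0.15, adjusted P = 0.00134). Per2, at its highest mean then, had a change of 0.40 (SE 0.22, adjusted P = 0.369) that did not pass. From ZT15 to ZT18, across lanes 3 and 4, 2 of 6 fell (0.748% of genes fell), Per2 with -1.07 (SE 0.22, adjusted P = 0.0165) and Per3 with -0.85 (SE 0.19, adjusted P = 0.0204). Both fell again from ZT18 to ZT21 (2 of 6 against 0.826%), Per2 with -1.38 (SE 0.23, adjusted P = 0.00352) and Per3 with -0.86 (SE 0.19, adjusted P = 0.0157). From ZT21 to ZT0, across lanes 4 and 2, 2 of 6 fell (4.22%), Per1 with -1.09 (SE 0.31, adjusted P = 0.0286) and Per3 with -0.68 (SE 0.19, adjusted P = 0.0241).

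**Figure D3:**
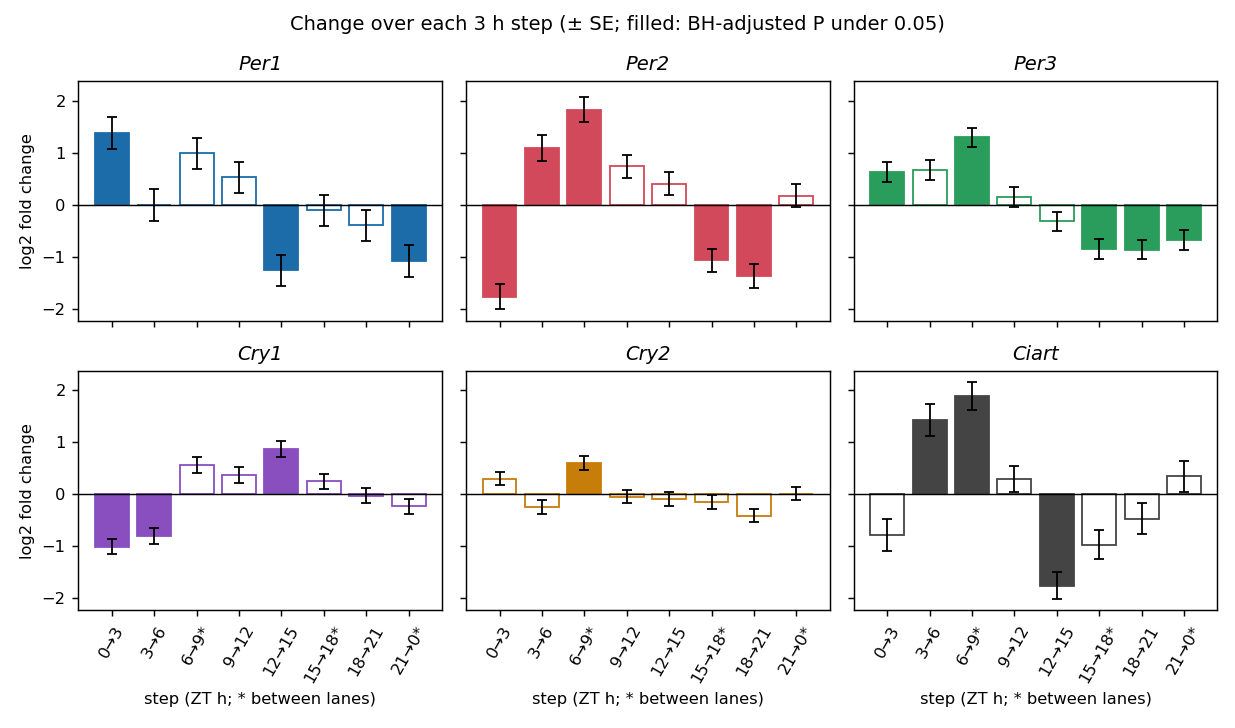
Log2 fold change (± SE, from the edgeR fit over 32 libraries) of the 6 genes over each 3 h step, with filled bars for steps with BH-adjusted P under 0.05, open bars for the others and an asterisk for steps that cross lanes. Filled bars number 5 for Per2 and for Per3, 3 for Per1, Cry1 and Ciart, and 1 for Cry2.

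The 9 less stable steps each lost their call without certain single libraries. For Per3 from ZT0 to ZT3 the adjusted P was 0.0507 to 0.0844 without replicate 1, 2 or 3 of ZT0 or replicate 1, 2 or 4 of ZT3, and from ZT21 to ZT0 it was 0.0567 to 0.0853 without replicate 1, 2 or 3 of ZT0 or replicate 1 or 2 of ZT21. From ZT15 to ZT18 Per3 had 0.0534 to 0.0826 without replicate 1 of ZT15 or replicate 1, 2 or 4 of ZT18, and from ZT18 to ZT21 0.0506 to 0.0543 without replicate 3 of ZT18 or replicate 3 or 4 of ZT21. For Per1 the adjusted P was 0.0572 to 0.0765 from ZT12 to ZT15 without replicate 3 of ZT12 or replicate 1, 3 or 4 of ZT15, and 0.0837 to 0.101 from ZT21 to ZT0 without replicate 1 or 2 of ZT0 or replicate 2 of ZT21. Per2 had 0.0607 from ZT3 to ZT6 without replicate 2 of ZT3 and 0.0564 from ZT15 to ZT18 without replicate 3 of ZT18. Cry2 had 0.0694 from ZT6 to ZT9 without replicate 4 of ZT9. Without the 5 libraries rich in muscle markers, the calls of Per3 from ZT0 to ZT3, ZT15 to ZT18 and ZT21 to ZT0 (adjusted P = 0.167, 0.196 and 0.0937) and of Per1 from ZT12 to ZT15 and ZT21 to ZT0 (0.106 and 0.0526) were also lost. The log2 fold changes of these steps were then 0.54, -0.74 and -0.64 for Per3, where they had been 0.62, -0.85 and -0.68, and -1.18 and -1.19 for Per1, where they had been -1.27 and -1.09.

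Opposite times of day were always on different lanes, and none of the 18 calls in 24 comparisons was lost by leaving out any 1 library. From ZT0 to ZT12, 6 of 6 differed (background 15.9%), where Per1 had a log2 fold change of 2.87 (SE 0.32, adjusted P = 7.8e-07), Ciart of 2.84 (SE 0.28, adjusted P = 1.1e-07), Per3 of 2.73 (SE 0.20, adjusted P = 2.4e-10), Per2 of 1.88 (SE 0.23, adjusted P = 2.5e-06), Cry2 of 0.62 (SE 0.13, adjusted P = 0.00174) and Cry1, alone in falling, of -0.88 (SE 0.15, adjusted P = 1.7e-04). From ZT9 to ZT21, 6 of 6 differed as well (9.62%): Cry1 rose by 1.48 (SE 0.15, adjusted P = 1.8e-07), and the others fell, Ciart with -2.89 (SE 0.29, adjusted P = 1.7e-07) and Cry2 with -0.68 (SE 0.13, adjusted P = 0.00143) at the extremes. From ZT3 to ZT15, 4 of 6 rose (6.89% of genes rose), Per2 by 4.05 (SE 0.26, adjusted P = 3.8e-11), Per3 by 1.78 (SE 0.19, adjusted P = 4.3e-07), Cry1 by 1.00 (SE 0.15, adjusted P = 3.7e-05) and Ciart by 1.87 (SE 0.30, adjusted P = 9.6e-05), and Per1 and Cry2 did not pass. From ZT6 to ZT18 only Cry1 and Per2 differed (2 of 6 against 16.9%), by 2.06 (SE 0.15, adjusted P = 1.0e-09) and 1.89 (SE 0.23, adjusted P = 3.7e-06).

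Within single lanes, where lane cannot differ, 5 of 6 members changed between ZT0, ZT3 and ZT6 on lane 2 (background 13.3% of 14866 genes), with adjusted P from 5.8e-04 for Cry1 to 0.029 for Ciart, and Cry2 had 0.238. On lane 3, 3 of 6 changed between ZT9, ZT12 and ZT15 (1.93%): Cry1 (6.4e-04), Ciart (0.014) and Per2 (0.0297). On lane 4, 3 of 6 changed between ZT18 and ZT21 (4.48%): Per2 (0.00449), Per3 (0.0132) and Cry2 (0.0289). Some of these calls rest on few mice. Without the 5 libraries rich in muscle markers, Ciart on lane 2 and Per2 on lane 3 did not pass (adjusted P = 0.0629 and 0.0665). Without replicate 1 or 2 of ZT0 on lane 2, Per1 had 0.0608 to 0.0644, and Ciart had 0.0536 to 0.0698 without either of these, replicate 1 of ZT3 or replicate 1, 2 or 3 of ZT6. On lane 3, Per2 had 0.0508 to 0.0963 without replicate 2 of ZT9, replicate 1 or 3 of ZT12 or replicate 3 or 4 of ZT15, and Ciart 0.0701 to 0.0779 without replicate 3 or 4 of ZT15. Per1, at 0.0707 with all libraries, passed there without replicate 1 of ZT9 or replicate 2 of ZT15 (0.04 to 0.0491). Cry2 on lane 4 had 0.0531 to 0.0758 without any 1 of the 8 libraries except replicate 4 of ZT18. Over all libraries with lane as an additive term, the 24 h cosine passed for 5 of 6 members (background 17.2%), with adjusted P of 1.5e-10 for Cry1, 3.5e-06 for Per3, 1.9e-04 for Per2, 0.0069 for Per1 and 0.0246 for Ciart. The 12 h component then passed for Per2 (0.0343) beside Ciart (0.0102), 2 of 6 against 1.05%.

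To compare levels between genes, CPM were divided by the exonic length of each gene in kilobases (CPM per kb), which counts every annotated isoform. The balance of the cryptochromes per kb turned over the day, whereas in CPM the mean of Cry2 was above that of Cry1 at every time point (45.1 against 33.9 CPM at ZT21), so that the side of 1 rests on the division by length. Cry2 exceeded Cry1 by a ratio of 3.11 ± 0.506 (SD, n = 4) at ZT6 and 3.12 ± 0.353 (SD, n = 4) at ZT9, the ratio was 1.21 ± 0.114 (SD, n = 4) at ZT15, and at ZT21 it was 0.706 ± 0.0919 (SD, n = 4). At ZT0 and at ZT21 every mouse had more Cry1 than Cry2 per kb, from ZT3 to ZT15 every mouse had more Cry2, and at ZT18 the mice lay on both sides of 1. The log2 ratio of CPM of Cry1 to Cry2 differed between time points (permutation test, 100000 resamples over 32 mice, two-sided, P = 1e-05, the smallest that these resamples can give).

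The summed period transcripts outweighed the summed cryptochromes most at ZT12. Per1, Per2 and Per3 together reached 57.3 ± 3.90 CPM per kb (SD, n = 4) at ZT12 and 10.1 ± 2.02 (SD, n = 4) at ZT0. Cry1 and Cry2 together varied less, from 10.0 ± 1.27 CPM per kb (SD, n = 4) at ZT6 to 19.8 ± 1.54 (SD, n = 4) at ZT18. The ratio of the sums was 0.637 ± 0.099 (SD, n = 4) at ZT0 and 3.63 ± 0.185 (SD, n = 4) at ZT12. At ZT21 it was 0.863 ± 0.112 (SD, n = 4), a side of 1 that rests on the division by length. By level per kb, Per3 came first from ZT6 to ZT12, Per2 at ZT15, Cry1 at ZT18, ZT21 and ZT0, and Cry2 at ZT3. The first places of Cry1 and Per2 rest on the division by length. In CPM the mean of Cry1 was below those of Per3, Cry2, Per2 and Per1 at ZT18 (34.5 against 94.2, 59.8, 52.2 and 45.4). It was also below Cry2 and Per3 at ZT21 and ZT0, and Per2 was below Per3 at ZT15 (110 against 170 CPM). Neighbours in the orders per kb were often within their spread, as at ZT18, where Cry1 had 10.3 ± 1.12 and Per3 9.80 ± 1.49 CPM per kb (SD, n = 4 each). Ciart was last at 6 of 8 times, all but ZT9 and ZT12, when Cry1 was last. These sums are of transcripts and say nothing of protein.

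**Figure D4:**
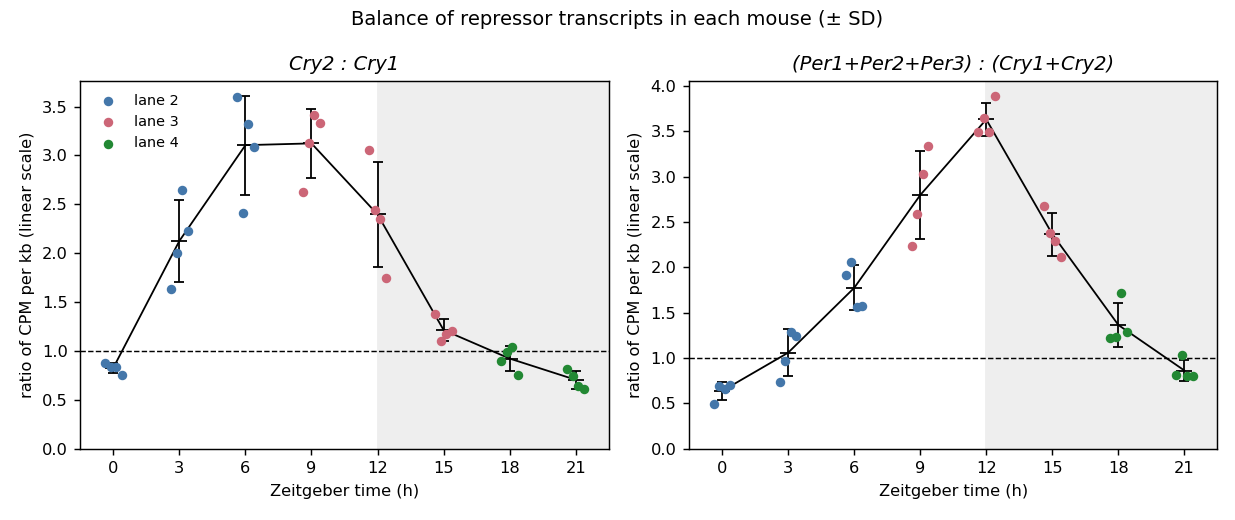
Ratio of CPM per kb (linear scale) against Zeitgeber time in each of 32 mice, coloured by lane, for Cry2 to Cry1 (left) and for the sum of the 3 period genes to the sum of the 2 cryptochrome genes (right), with mean ± SD of 4 mice in black and a dashed line at a ratio of 1. The left ratio falls below 1 in all mice at ZT21 and ZT0, and the right ratio has its highest mean, 3.63, at ZT12.

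No 2 members kept a constant proportion. For each of the 15 pairs the log2 ratio of CPM per mouse differed between time points (permutation tests of F, 100000 resamples, two-sided, BH over the 15 pairs), also with time labels permuted within lanes and without any 1 library. The widest swing, 4.26 log2 units between ZT21 and ZT9, was that of Cry1 to Ciart. Per2 to Cry2 swung by 3.80 between ZT15 and ZT3, and Per1 to Per2 by 3.78, from a log2 ratio of 2.58 ± 0.60 (SD, n = 4) at ZT3 to -1.20 ± 0.60 (SD, n = 4) at ZT15. The highest P of the 15 was that of Per1 to Per3 (permutation P = 5.6e-04), whose ratio moved by 1.51 log2 units between ZT3 and ZT15. Per3 to Ciart had a swing of 1.48 (permutation P = 3.0e-05).

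Among mice of the same time point the members were not shown to vary together. Deviations of log2 CPM from the time-point means gave positive Pearson's r for all 15 pairs, but 0 of 15 passed after BH adjustment in the permutation test (mice permuted within time points, 100000 resamples, two-sided), with 5 at unadjusted P under 0.05 for Pearson's r and 3 for Spearman's rho. For Per1 and Ciart, r was 0.515 (permutation P = 0.0155, adjusted 0.122) and rho 0.529 (permutation P = 0.00802), and r was 0.543 without the 2 libraries farthest from the median of Per1. Within lanes 2, 3 and 4 this r was 0.479, 0.782 and 0.0665. For Per2 and Cry2, r was 0.577 (permutation P = 0.0163, adjusted 0.122) and rho 0.453 (permutation P = 0.0449), but r fell to 0.299 without 2 libraries, and within the lanes it was 0.504, 0.684 and 0.571. Without replicate 4 of ZT3, 2 of 15 pairs passed, Per2 with Cry1 and Per2 with Cry2 (adjusted permutation P = 0.0345 each). On lane 3 r was positive for all 15 pairs, from 0.303 (Cry1 and Cry2) to 0.822 (Per3 and Cry2, unadjusted permutation P = 0.00788). The lowest r was -0.213 on lane 2 (Per2 and Per3) and -0.818 on lane 4 (Per3 and Cry1, unadjusted permutation P = 0.0139). At ZT9, looked at after the values were seen, Per1, Per3, Cry1 and Cry2 all increased in order from replicate 1 to 4. Per2 and Ciart were higher there in replicates 3 and 4 than in 1 and 2.

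The partners of these repressors in the loop framed them in time. Of 12 clock partners, all tested, 10 passed the 24 h cosine test (36.1% of all tested genes) and 10 the JTK threshold (36.4%), with a median amplitude of 1.15 log2 units. The activators came around lights on, Arntl at ZT23.2 (amplitude 2.50), Clock at ZT23.6 (0.55) and Npas2, a substitute for CLOCK, at ZT0.8 (2.54). Nr1d1 and Nr1d2, which encode the REV-ERB repressors of Arntl, had fitted peaks before those of the period genes, at ZT7.2 (1.97) and ZT9.9 (1.34). The D-box activator Dbp (ZT10.1, 2.66) peaked close to Nr1d2, the D-box activators Hlf (ZT11.6, 1.03) and Tef (ZT12.1, 1.04) close to Per1 and Per3, and the D-box repressor Nfil3 (ZT20.4, 1.25) after Cry1. Bhlhe41 (ZT11.7, 0.67), a repressor at E-boxes, also passed, but had an adjusted P of 0.374 beside lane. Rora and Bhlhe40 did not pass, at adjusted P = 0.21 and 0.824. With lane as a term 9 of the 12 passed (17.2% of all genes).

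Genes whose products modify or bind PER and CRY had mostly small amplitudes. Of 15, all tested, 9 passed the cosine test (36.1% of all genes), 10 the JTK threshold (36.4%) and 8 the JTK test after BH adjustment (27.1%), but their median amplitude was 0.12 log2 units, below the 0.139 of all genes, and 4 passed beside lane (17.2%). The widest was that of Usp2, a deubiquitinase, with 1.06 ± 0.11 (SE) log2 units and a peak at ZT12.9 (adjusted P = 3.0e-08, but 0.266 beside lane). Of the casein kinases that mark PER for degradation, Csnk1e had 0.24 (adjusted P = 0.00357) and Csnk1d 0.0972 (0.03). Prkaa1, a catalytic subunit of AMPK that phosphorylates CRY1, had 0.19 (0.00596) and Sfpq, a PER-binding protein, 0.29 (0.00163). The remaining members that passed were Gsk3b (0.26), Prkaa2 (0.29), Btrc (0.0857) and Wdr5 (0.0771). The 6 others had adjusted P from 0.0666 to 0.911.

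The genes most alike in course were found by Pearson's r of the 8 time-point means of log2 CPM, among 5188 genes with a mean of at least 1 CPM that passed the cosine test. With so many candidates and 8 points that share libraries and lanes, these values only describe likeness. Nearest to Per1 were Pspc1 (r = 0.98), Eef2 (0.96) and Ddit4 (0.96), of which Eef2 encodes a translation elongation factor and Ddit4 an inhibitor of mTORC1. Nearest to Per2 were Naa60 (r = 0.98), Atg16l1 (0.98) and Sdhaf1 (0.98), nearest to Per3 Txndc5 (r = 0.99), C8g (0.98) and Dcxr (0.98), and nearest to Cry1 Tbccd1 (r = 0.99), Myo5c (0.98) and Gm2981 (0.98). For Cry2 they were Pabpc1 (r = 0.99), Cd82 (0.98) and Plppr3 (0.97), with the poly(A)-binding protein gene Pabpc1 ahead, and for Ciart 1700096K18Rik (r = 0.98), Dhrs1 (0.98) and Abhd12 (0.97). No member was among the 3 nearest of another.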

How the data were processed

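RNA of iBAT from 32 mice was sequenced as stranded paired-end libraries. Per the labels and the study's methods, the authors mapped reads to mm10 with GSNAP and counted them per Ensembl gene with HTSeq (0.6.1), and the deposited values are raw counts without normalization. Genes were filtered with filterByExpr (edgeR 4.0.16, R 4.3.3), which kept 99.9% of counts, and scaled with TMM. Quasi-likelihood tests of edgeR with BH adjustment over all tested genes (threshold 0.05) were fitted to the counts for the 24 h cosine, the 12 h component, the time points and their contrasts. JTK cycle was an own implementation with 15 templates of 21 and 24 h. Amplitudes and peaks came from cosines on log2 CPM (prior count 2), with delta-method errors. Scripts were tested on simulated data. DESeq2 (1.42.0), other scalings, filters, lane, replicate block and left-out libraries were alternatives. Coordinates are GENCODE vM21 (GRCm38), RefSeq promoters GRCm38.p6. Named genes were the 6 members, 2 lists (clock partners, modifiers), for each member the 3 most alike genes, and genes overlapping a member. A further gene of each list was left out of its counts and is not reported here. Members and lists were chosen with earlier results of these data known. No label says more of how mice were sampled within a time point, so P-values measure the spread between these mice. Libraries held 16300770 to 18254659 counts. Precision rests on the 4 mice per time point and, for Ciart, also on few reads, with 13 in its lowest library. Counting error was not compared with the spread between mice. The depth of a library covers counting error only.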

Additional observations from a re-analysis of the deposited data

Results flagged for a closer look

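In 4 of 48 groups of 4 mice, 1 mouse stood apart from the 3 others of its time point by Dixon's criterion (gap to the nearest divided by range), which chance gives in about 1 of 20 groups. Per1 at ZT12 was 140.1 CPM in replicate 3 and 109 to 112 CPM in the others. Per3 at ZT3 was 40.5 CPM in replicate 3 and 51.4 to 53.2 CPM in the others. Cry1 at ZT3 was 20.5 CPM in replicate 1 and 11.7 to 13.1 CPM in the others. Ciart at ZT15 was 7.39 CPM in replicate 2 and 4.41 to 4.72 CPM in the others.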

How the results depend on the processing

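Counts of members or pairs past the threshold stayed within 1.5 times the reported count in 157 of 161 refits with another setting and in 590 of 608 refits without 1 library, and no single member reversed its direction in any of them. The exceptions were the 12 h component with lane as a factor (2 members in place of 1) and, without the 5 libraries rich in muscle markers, ZT15 to ZT18 (1 in place of 2) and ZT21 to ZT0 (0 in place of 2 by edgeR, with 3 members at unadjusted P under 0.05, and 2 by DESeq2 on all libraries); fewer samples entered these last fits, and the cause was not tested. With the muscle marker sum as a covariate, chosen after seeing the data, 1 call was gained, that of Per3 from ZT3 to ZT6 (adjusted P = 0.0445), and 1 was lost, that of Per2 within lane 3 (adjusted P = 0.0842). With a replicate block, 1 member in place of 3 differed within lane 4, where Per3 and Cry2 had adjusted P of 0.0542 and 0.0536, and Ciart was lost within lanes 2 and 3 (0.066 and 0.0606), so that Ciart and Cry2 passed within no lane. The replicate numbers did not pair the mice: 49 of 112 pairs of libraries with the same number had a correlation of deviations over 0.1, and 4 of 32 libraries correlated best with their own number. Leaving out 1 library gave 3 to 4 members from ZT0 to ZT3, 2 to 4 from ZT3 to ZT6, 3 to 5 from ZT6 to ZT9, 2 to 3 from ZT12 to ZT15, 1 to 2 from ZT15 to ZT18, 1 to 2 from ZT18 to ZT21, 0 to 2 from ZT21 to ZT0, 2 to 3 from ZT6 to ZT18, 3 to 5 within lane 2, 1 to 4 within lane 3, 2 to 3 within lane 4, and 0 to 2 related pairs. Over all genes, the 24 h cosine called 5602 genes and 2661 with lane, and the 12 h component 72 genes, 448 by DESeq2 and 163 with lane. DESeq2 gained Per3 from ZT3 to ZT6, Cry1 from ZT6 to ZT9 and Ciart from ZT15 to ZT18 (adjusted P = 0.0197, 0.0204 and 0.0242), and library size alone gained Cry2 from ZT0 to ZT3 and Cry1 from ZT6 to ZT9 (0.0462 and 0.0498). DESeq2 and the fit without a filter also called Per1 within lane 3 (adjusted P = 7.6e-04 and 0.0409), and library size alone lost Per2 there (0.0565). Depth limits Ciart most, at 13 reads in its lowest library.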
